A study of Schizosaccharomyces pombe with 6 samples.

Results

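The 8 genes arg1, arg3, arg4, arg5, arg6, arg7, arg11 and arg12 code for enzymes of arginine biosynthesis in the fission yeast Schizosaccharomyces pombe. They were taken by gene name, leaving out non-coding RNAs, from the 6986 genes counted, and all 8 had enough counts to be tested. RNA came from 3 duf89∆ libraries (strain AS2300, mating type h-, duf89 replaced by a hygromycin resistance marker) and 3 WT libraries (strain JS 77, with no further allele given). Both strains grew in log phase in YES, a rich yeast extract medium, at 30 °C, and polyadenylated RNA was sequenced. Each genotype is a single strain, and the WT libraries had been deposited earlier with another series. Genotype, strain and any difference in the handling or processing of the groups cannot be told apart in any value below. By the series' design text both groups were sequenced in the same period, on either of 2 instrument models that the labels do not assign to libraries.

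Arginine is made from glutamate by way of ornithine and citrulline. An acetyl group is added to glutamate, carried through the steps to acetylornithine and then removed or passed on, which leaves ornithine. Carbamoyl phosphate synthase supplies the carbamoyl group that turns ornithine into citrulline, and citrulline is joined to aspartate and cleaved to arginine. In fungi the acetylated steps take place in mitochondria, and the enzymes themselves are encoded in the nucleus.

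Total counts per library ranged from 19902001 to 21572536 in duf89∆ and from 18244492 to 20166818 in WT. The targeted gene duf89 (SPCC1393.13) had 229, 234 and 373 counts in duf89∆, against 808, 897 and 794 in WT, a log2 fold change of -1.74 (SE 0.16). It was lower in every duf89∆ library, but counts remained. The groups also differed in mitochondrial features (identifiers beginning SPMIT), which had 0 counts in all 3 duf89∆ libraries, against 851, 1078 and 727 in WT. Counts on rRNA genes averaged 958 ± 178 in duf89∆ and 11528 ± 1635 in WT (SD, n = 3 each). Without mitochondrial and rRNA genes the arginine genes had a median log2 fold change of -0.60, against -0.62 with them. Of 5 marker genes of h- cells 0 were called between the groups, against 53.3% of all genes tested. Their mean levels ran from 1.01 (mfm3) to 148 CPM (mfm2) in duf89∆ and from 1.45 (mfm3) to 144 CPM (mfm2) in WT. Mfm3 had few counts, 28, 10 and 26 in duf89∆ against 26, 28 and 28 in WT. Its CPM were lower in every duf89∆ library. Markers of the opposite mating type were not at 0: map2 stood at 6.80 ± 0.27 CPM in duf89∆ and 11.2 ± 2.3 CPM in WT and was called lower, and map3 stood at 20.2 ± 0.6 CPM in duf89∆ and 22.9 ± 1.2 CPM in WT (SD, n = 3 each). CPM are counts per 1000000 counts of a library, scaled with TMM factors.

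Transcripts of 7 of the 8 arginine genes were lower in duf89∆, and those of the genes for carbamoyl phosphate, citrulline and argininosuccinate formation were the lowest relative to WT. Arg12 stood at 0.509 of its WT level, arg5 at 0.549, arg4 at 0.570 and arg3 at 0.602. The genes of the acetylated steps lay closer to WT, with arg1 at 0.701, arg11 at 0.826 and arg6 at 0.850. Arg7, for the last step, stood at 1.09. Folds are from an edgeR fit over the 6045 genes with enough counts. The set was selected on these measured values, the fold changes of duf89∆ over WT, so the differences are a description and no p-value is given for them.

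Arg6 codes for acetylglutamate synthase, which opens the pathway. Its mRNA measured 165, 159 and 169 CPM in duf89∆, against 197, 199 and 183 CPM in WT. The groups did not overlap, and the log2 fold change was -0.23 (SE 0.05). Arg11 codes for a precursor with both acetylglutamate kinase and acetylglutamyl-phosphate reductase activity. It measured 586, 581 and 555 CPM in duf89∆, against 679, 700.5 and 705 CPM in WT, a log2 fold change of -0.28 (SE 0.04). Arg1, the acetylornithine aminotransferase gene, measured 919, 915 and 918 CPM in duf89∆, against 1295, 1321 and 1309 CPM in WT (-0.51, SE 0.04). Its libraries lay closest together of the 8 genes in both groups, with a coefficient of variation of 0.212% in duf89∆ and 0.995% in WT. With 3 libraries in a group, these are imprecise measures of spread.

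Arg4 and arg5 code for the large and the small subunit of the carbamoyl phosphate synthase that serves arginine. Arg4 mRNA measured 625, 632 and 561 CPM in duf89∆, against 1022, 1101 and 1066 CPM in WT (-0.81, SE 0.05). That of arg5 measured 425, 429.8 and 386 CPM in duf89∆, against 734, 778 and 749.8 CPM in WT (-0.87, SE 0.05). Both subunit genes were lower in every duf89∆ library, and their lowest library was replicate 3 in duf89∆ and replicate 1 in WT.

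Arg3 codes for ornithine carbamoyltransferase, which forms citrulline. It measured 94.8, 93.1 and 83.8 CPM in duf89∆, against 148, 150.2 and 153 CPM in WT (-0.73, SE 0.06). Arg12 codes for argininosuccinate synthase, which joins citrulline and aspartate. The raw counts of arg12 were 9038, 8728 and 8381 in duf89∆, against 13664, 16491 and 15839 in WT. In CPM this was 417, 428 and 398 in duf89∆, against 756, 849 and 838 in WT, a log2 fold change of -0.98 (SE 0.05, 95% interval from -1.10 to -0.85). The groups were far apart, and arg12 ranked 178 from the lowest log2 fold change of the 6045 genes.

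Arg7, an argininosuccinate lyase gene, was the least abundant of the 8. Its counts were 773, 704 and 761 in duf89∆, against 577, 645 and 608 in WT. In CPM these were 35.6, 34.5 and 36.1 in duf89∆, against 31.9, 33.2 and 32.2 in WT. The groups did not overlap, but the log2 fold change of 0.13 (SE 0.07) had a 95% interval from -0.03 to 0.28. With cyclic loess, a scaling that removes any trend with abundance, arg7 measured -0.13, and with total counts 0.20, so no direction is given for it.

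**Figure D1:**
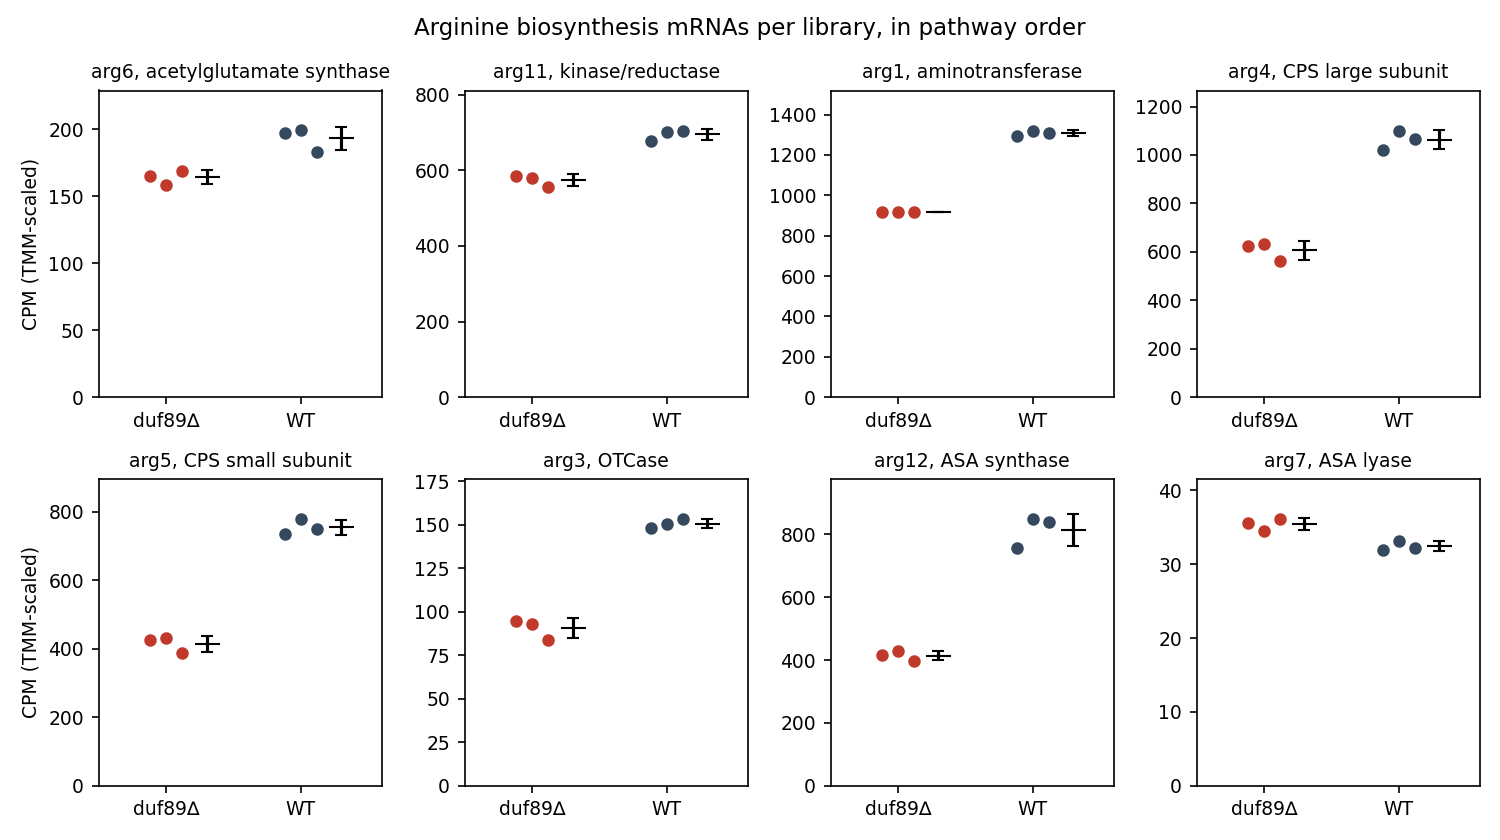
CPM of each arginine biosynthesis gene in the 3 duf89∆ libraries (left, red) and the 3 WT libraries (right, dark), with the mean and SD beside them; CPS is carbamoyl phosphate synthase, OTCase ornithine carbamoyltransferase and ASA argininosuccinate. In 7 panels every duf89∆ library lies below every WT library, and in the arg7 panel every one lies above.

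In the edgeR quasi-likelihood test 7 of the 8 genes were called lower, 0 were called higher and arg7 was not called. Over all 6045 genes tested 53.3% were called, 24.6% lower and 28.8% higher. All 3 duf89∆ libraries lay below all 3 WT libraries for 7 of the 8 genes, against 30.4% of all genes tested, and above them for arg7, against 32.9%. The median log2 fold change was -0.62 over the 8 genes, 0.00 over all genes tested and 0.03 over protein-coding genes. As the choice of the 8 genes used this contrast, these counts support nothing further. The authors' deposited table describes the same libraries, so it adds no support either. There the same 7 genes had an adjusted p-value below 0.05 and a negative log2 fold change, from -0.99 for arg12 to -0.25 for arg6. None of the 8 genes differed from the refit by more than 0.02.

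Summed over the 8 genes, arginine biosynthesis mRNAs took 0.328%, 0.335% and 0.324% of all counts in duf89∆, against 0.482%, 0.494% and 0.492% in WT. The sum was 3215 ± 93 CPM in duf89∆ and 5011 ± 137 CPM in WT (SD, n = 3 each). In bulk RNA, fewer transcripts per cell and a shift in the makeup of the culture cannot be told apart.

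Levels of different genes were compared per kilobase of spliced transcript. In duf89∆ the order was arg1 at 559 ± 1, arg12 at 261 ± 10, arg5 at 204 ± 12, arg11 at 204 ± 6, arg4 at 156 ± 10, arg6 at 97.1 ± 3.1, arg3 at 56.8 ± 3.7 and arg7 at 23.5 ± 0.5 CPM per kb (SD, n = 3). Libraries of arg5 (191 to 212) and arg11 (197 to 208) overlapped there, and the other neighbours in that order did not. In WT the order was arg1 at 797 ± 8, arg12 at 513 ± 32, arg5 at 373 ± 11, arg4 at 273 ± 10, arg11 at 247 ± 5, arg6 at 114 ± 5, arg3 at 94.3 ± 1.6 and arg7 at 21.6 ± 0.5 CPM per kb, with no overlap between neighbours. Arg4 and arg11 thus changed places, since arg4 libraries spanned 144 to 162 in duf89∆ and 263 to 283 in WT, and arg11 libraries 197 to 208 in duf89∆ and 241 to 250.4 CPM per kb in WT.

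Ratios between the genes restate the fold changes above library by library and test nothing further. The pairs were not set by rule. The subunit genes arg4 and arg5 kept nearly the same balance, with a per-kilobase ratio of 0.761 ± 0.006 in duf89∆ and 0.733 ± 0.008 in WT (SD, n = 3 each), although the libraries did not overlap. The ratio of arg12, late in the pathway, to arg1 was 0.468 ± 0.018 in duf89∆ and 0.644 ± 0.035 in WT. Between arg3 and arg11 it was 0.278 ± 0.010 in duf89∆ and 0.382 ± 0.003 in WT.

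**Figure D2:**
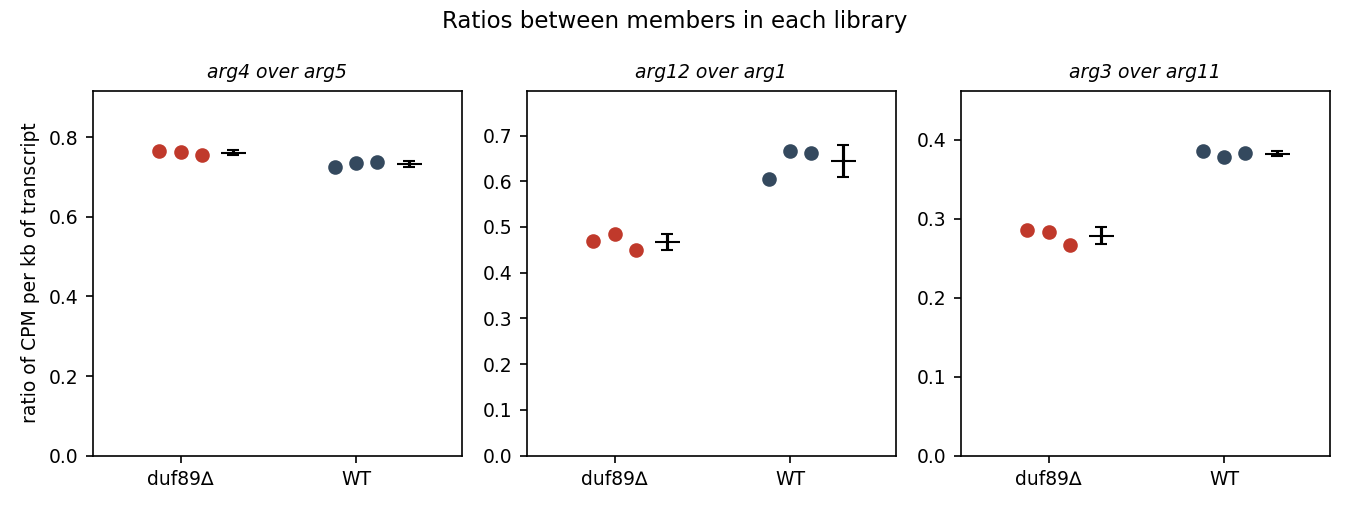
Ratio of CPM per kilobase of transcript between pairs of arginine genes in the 3 duf89∆ libraries (left, red) and the 3 WT libraries (right, dark), with mean and SD. The arg4 to arg5 ratio stayed between 0.724 and 0.765 in all 6 libraries, while the other ratios were lower in every duf89∆ library.

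Replicates of a group differed in the same sense for most of the genes. In duf89∆, replicate 3 had the lowest value for 5 genes (arg3, arg4, arg5, arg11 and arg12) and replicate 2 for the other 3. In WT, replicate 1 was lowest for 7 genes and replicate 3 for arg6. The median deviation of the 8 genes from their group mean ran from -0.05 to 0.04 on the log2 scale over the 6 libraries. Leaving out duf89∆ replicate 3 moved the median log2 fold change to -0.57, still with 7 genes called lower.

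Among protein-coding genes the log2 fold change mostly fell as abundance rose, and most arginine genes are abundant. When protein-coding genes were split into 8 bins by mean CPM, the top bin of 620 genes had a median log2 fold change of -0.17, and 59.5% of it was called lower. Arg1, arg4, arg5, arg11 and arg12 fell in that bin, and 4 of its genes, arg12 included, had a log2 fold change at or below that of arg12. Arg6 lay in the next bin, with a median of -0.11, arg3 in the bin below it, with -0.04, and arg7 in a bin of low counts, with 0.33. The lowest bin had a median of 0.19 and held no arginine gene. With cyclic loess the median over the 8 genes was -0.49. Arg12, arg3, arg5 and arg4 then measured -0.82, -0.74, -0.71 and -0.65, while arg1, arg6 and arg11 measured -0.34, -0.17 and -0.12, and the same 7 genes were called lower.

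**Figure D3:**
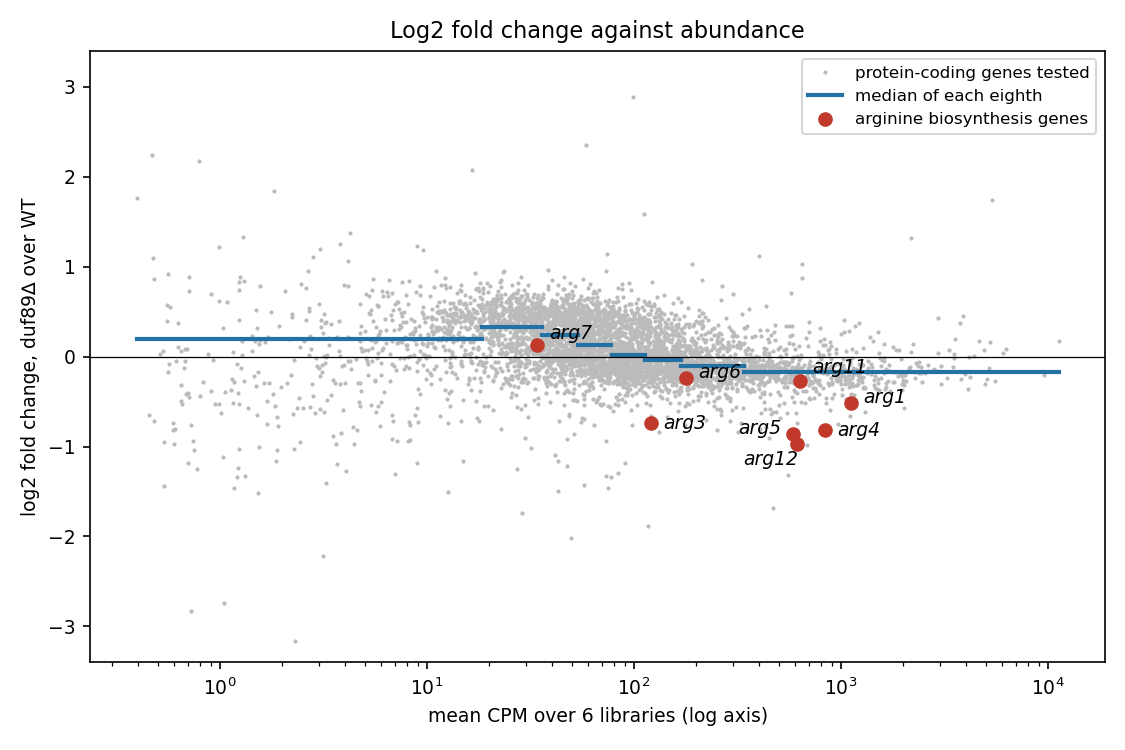
Log2 fold change of duf89∆ over WT against mean CPM (log axis) for protein-coding genes tested (grey), with the median of each of 8 bins (blue lines) and the arginine genes (red). The bin medians run from 0.33 in a bin of low counts to -0.17 in the top bin, with 0.19 in the lowest bin. Arg3, arg4, arg5 and arg12 lie below -0.7.

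Across all 17 alternative settings, which refit the counts used to choose the genes, the 7 genes stayed below 0 and called. This gives no independent support. The ranges were -1.03 to -0.82 for arg12, -0.92 to -0.71 for arg5, -0.84 to -0.65 for arg4, -0.80 to -0.66 for arg3 and -0.54 to -0.34 for arg1. Those of arg11 and arg6 were -0.30 to -0.12 and -0.27 to -0.17.

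**Figure D4:**
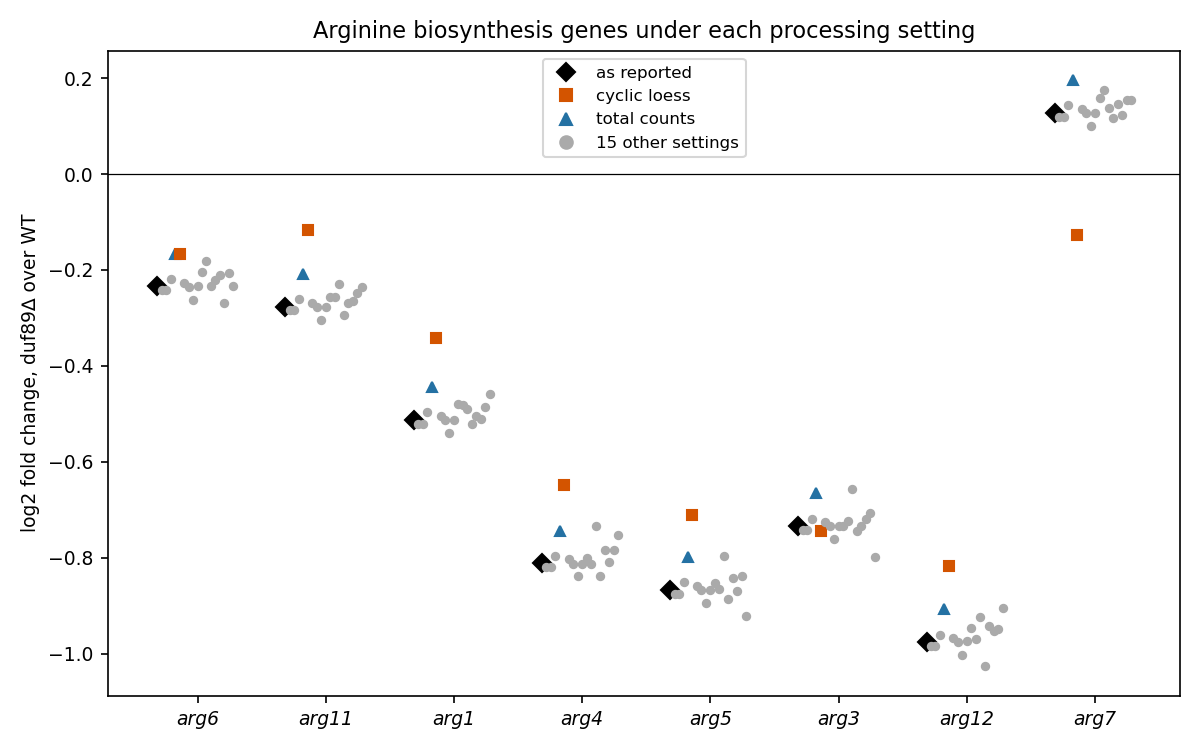
Log2 fold change of duf89∆ over WT for each arginine gene as reported (black), with cyclic loess (orange), with total counts (blue) and under 15 other settings (grey). Arg7 is the only gene of the 8 with values on both sides of 0, from -0.13 to 0.20.

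The arginine genes lie on chromosomes I (arg3 and arg11), II (arg4, arg5, arg6, arg7 and arg12) and III (arg1). In the RefSeq annotation of assembly ASM294v3, arg1 has 2 exons and the others have 1, and none of the 50-mers of their transcripts occurs elsewhere in that genome. Arg3 and arg11 are adjacent protein genes that point away from each other, and their log2 fold changes were -0.73 and -0.28. Arg6 lies next to ura5, a gene of pyrimidine synthesis, which stood at -0.17. Of 18 counted neighbours or overlapping genes of the 8, 7 were lower, 4 higher and 7 not called, with a median of -0.09. The shares over all genes tested were 24.6% lower and 28.8% higher. Whether neighbours differ from other genes was not tested.

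The calls of 4 of these neighbours held under every alternative that tested them. The gluconokinase gene idn1, downstream of arg3, fell (-0.46, SE 0.05, adjusted p = 0.000125). Cmb1, for a cytosine-mismatch binding protein, overlaps arg3 on the other strand and rose (0.48, SE 0.11, adjusted p = 0.00638), with 0.23 under cyclic loess. Apq12, for a predicted nuclear membrane protein next to arg12, fell (-0.25, SE 0.05, adjusted p = 0.00356). The non-coding RNA SPNCRNA.1360, which runs across arg12 on the other strand, had 91, 59 and 92 counts in duf89∆, against 142, 155 and 140 in WT, and fell (-1.02, SE 0.18, adjusted p = 0.00175). Its change was close to that of arg12, and as the strand setting of the counting is not given, reads of overlapping genes cannot be told apart here. The RNA named arg4-antisense-1 had 72, 63 and 73 counts in duf89∆, against 109, 34 and 40 in WT, and was not called (0.0065, adjusted p = 0.99), but without WT replicate 1 it measured 0.77 (adjusted p = 0.0147).

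A further argininosuccinate lyase gene and a further acetyltransferase gene were looked at after their values were seen. Arg41, annotated as a predicted argininosuccinate lyase, measured 194, 190.0 and 200.2 CPM in duf89∆, against 228, 244 and 248 CPM in WT (-0.30, SE 0.05). Every duf89∆ library lay below every WT library, unlike for arg7. Per kilobase arg41 was the more abundant lyase mRNA, 5.56 ± 0.04 times arg7 in duf89∆ and 7.47 ± 0.30 times in WT. Together the lyase genes came to 230.3 ± 5.9 CPM in duf89∆ and 272 ± 11 CPM in WT (SD, n = 3 each). Aga1 (SPBC1271.14), annotated as a predicted acetyltransferase acting on glutamate, measured 78.4, 68.9 and 78.7 CPM in duf89∆, against 74.3, 86.3 and 83.6 CPM in WT. The groups overlapped (-0.11, SE 0.08), and it was not called, but with cyclic loess it was called lower (-0.21, adjusted p = 0.0351).

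The genes around the pathway were read from 6 lists. Of 38 tested genes 17 were lower, 6 higher and 15 not called, with a median of -0.11, and 16 of those 23 calls held under every alternative. Over all genes tested 24.6% were lower and 28.8% higher, the shares to set beside each list below. In the most abundant bins of protein-coding genes 28.4%, 43.1% and 59.5% were called lower, in order of rising abundance. Gdh1 and glt1, for example, lie in the top bin. Whether the lists differ from genes of like abundance was not tested. Among genes that make or use glutamate or carry ornithine 4 of 5 fell and 0 rose, with a median of -0.35. Gdh1, the NADP-dependent glutamate dehydrogenase gene, had 630.4 ± 52.4 CPM in duf89∆ and 1107 ± 80 CPM in WT (SD, n = 3 each; log2 fold change -0.81, SE 0.07, adjusted p = 3.54e-05), close to arg4. Ort1, for a predicted carrier of ornithine across the mitochondrial membrane, fell (-0.35, SE 0.06, adjusted p = 0.0012). Gdh2, for the NAD-dependent dehydrogenase, which breaks glutamate down, fell (-0.48, adjusted p = 0.00517). The glutamate synthase gene glt1 fell as well (-0.19, adjusted p = 0.00488), a call lost with cyclic loess (-0.04) and GC-corrected offsets (-0.11), while gln1, for glutamine synthetase, which uses glutamate, measured -0.09 (adjusted p = 0.33).

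In the list of breakdown of arginine, ornithine and related compounds 4 of 8 genes rose and 3 fell, with a median of 0.15, and the same split of 4 and 3 was counted under every alternative. Aru1, an arginase gene, measured 446 ± 16 CPM in duf89∆ and 363 ± 6 CPM in WT (SD, n = 3 each; log2 fold change 0.30, SE 0.04, adjusted p = 0.000687). Car2, for ornithine transaminase, measured 1192 ± 36 CPM in duf89∆ and 981 ± 16 CPM in WT (0.28, SE 0.04, adjusted p = 0.000704). The urease gene ure2 rose (0.23, adjusted p = 0.00322), as did ure4 of a urease accessory protein (0.53, SE 0.13, adjusted p = 0.00658). Car1, also an arginase gene, measured 0.07 (adjusted p = 0.508). Of those that fell, put1 codes for proline dehydrogenase (-0.28, adjusted p = 0.000932), pro1 for an enzyme of proline synthesis (-0.21, adjusted p = 0.00538) and spe2 for an enzyme of polyamine synthesis (-0.36, adjusted p = 0.00052). The per-kilobase ratio of aru1 to arg3, the genes that take arginine apart to ornithine and ornithine on to citrulline, was 6.62 ± 0.45 in duf89∆ and 3.23 ± 0.10 in WT. This ratio follows from the fold changes of aru1 and of arg3, which belongs to the selected set, and the pair was not set by rule. Car1, which was not called, is not in it, and a shift from synthesis to breakdown was not tested.

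Among transport genes and their regulators 5 of 11 fell and 2 rose, with a median of -0.11. Cat1, an arginine and lysine permease gene, fell by 0.37 on the log2 scale (SE 0.06, adjusted p = 0.00112). Can1, placed in the transport list by its name, fell by 0.20 (SE 0.04, adjusted p = 0.00438). Stm1, for a predicted vacuolar amino acid transporter, had 317 ± 10 CPM in duf89∆ and 546 ± 20 CPM in WT (-0.79, SE 0.05, adjusted p = 2.7e-06). Any1, for an arrestin-related adaptor in the uptake of permeases from the membrane, fell (-0.43, adjusted p = 0.00166), and tsc1, for hamartin of the TOR pathway, rose (0.24, adjusted p = 0.00758). The calls of the permease gene aat1 (-0.21, adjusted p = 0.0278) and of fnx1 (0.18, adjusted p = 0.0417), for a vacuolar transporter, each depended on the setting. The call of aat1 was lost without duf89∆ replicate 1 (-0.14) or 3 (-0.17) or WT replicate 1 (-0.17) or 3 (-0.19), with total counts (-0.14) and without mitochondrial and rRNA genes (-0.18). That of fnx1 was lost without duf89∆ replicate 1 (0.19) or 2 (0.17), without any 1 of the WT replicates (0.15 to 0.19), with DESeq2 (0.17), with cyclic loess (0.037) and with protein-coding genes only (0.15).

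Of 9 genes of the amino acid starvation response 2 fell, 0 rose and 7 were not called, with a median of -0.08. Under 5 alternatives 1 gene of this list was called higher. It was gcn20, a partner of gcn1, with total counts (0.16), without duf89∆ replicate 3 (0.13) and without mitochondrial and rRNA genes (0.12), against 0.09 and no call as reported. It was cpc2, for a ribosome-bound RACK1 protein, with cyclic loess (0.17) and GC-corrected offsets (0.10), against -0.01 as reported. With cyclic loess gcn5 (-0.28) and hri1 (-0.34) were called lower. Fil1, the transcription factor gene of that response in fission yeast, measured 343 ± 31 CPM in duf89∆ and 377 ± 29 CPM in WT, with overlapping libraries (-0.14, SE 0.07, adjusted p = 0.146). With GC-corrected offsets it was called (-0.20, adjusted p = 0.0425). Gcn2, for an eIF2 alpha kinase, measured 0.08 (adjusted p = 0.274). Tif211, for eIF2 alpha itself, fell (-0.21, adjusted p = 0.00367), a call lost with cyclic loess (-0.07), and gcn1 fell (-0.15, adjusted p = 0.014). The call of gcn1 was lost without duf89∆ replicate 1 (-0.11) or 3 (-0.12) or WT replicate 2 (-0.15), and with total counts and cyclic loess.

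Pyrimidine synthesis also uses carbamoyl phosphate and aspartate, and of 4 tested genes of that pathway 2 fell and 0 rose (median -0.14). Ura3, for dihydroorotate dehydrogenase, measured -0.30 (SE 0.05, adjusted p = 0.00106), and ura5 -0.17 (adjusted p = 0.00675), with no call without duf89∆ replicate 1 (-0.13), with total counts (-0.11) or with cyclic loess (-0.06). Ura1, for the carbamoyl phosphate synthase of pyrimidines, had 862 ± 62 CPM in duf89∆ and 928 ± 56 CPM in WT and was not called (-0.11, adjusted p = 0.173). Ura4 had 0 counts in all 6 libraries. The arginine tRNA ligase gene mrs1 measured -0.14 (adjusted p = 0.0173), a call lost when any library but WT replicate 3 was left out (-0.14 to -0.11) and with total counts, and it measured 0.023 with cyclic loess.

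**Figure D5:**
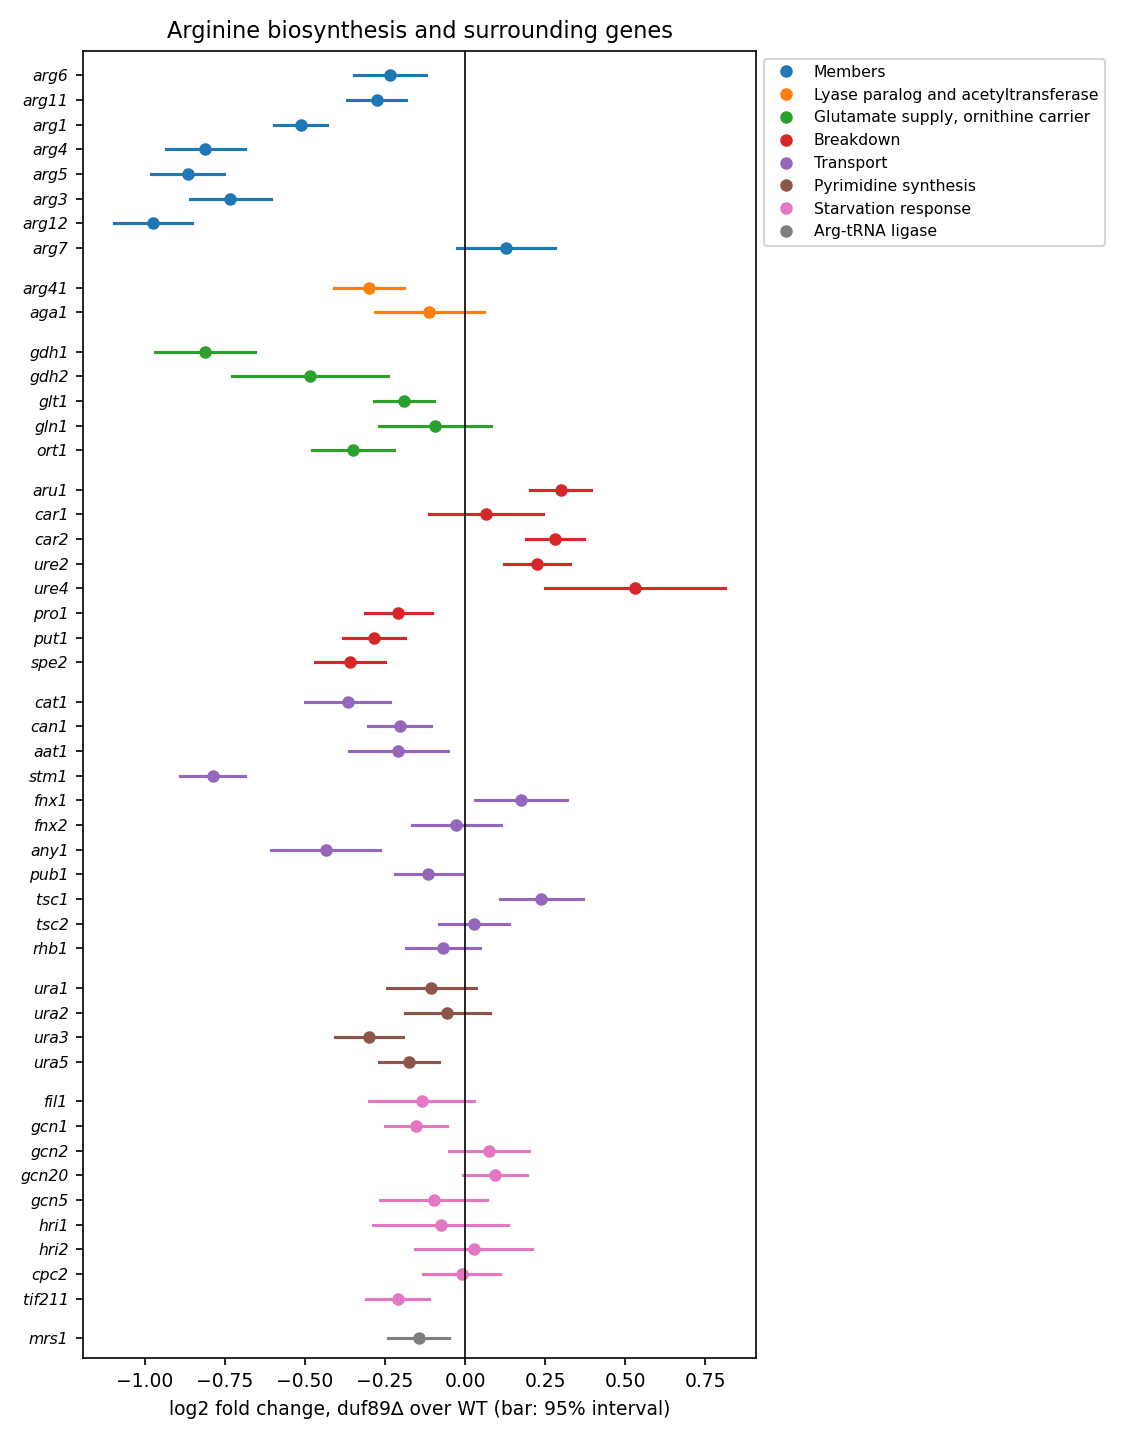
Log2 fold change of duf89∆ over WT with its 95% interval for the 8 arginine genes and for the surrounding genes in their lists. Arg3, arg4, arg5, arg12, gdh1 and stm1 lie below -0.7, and the intervals of aru1, car2, ure2 and ure4 of breakdown lie above 0.

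The genes whose pattern over the 6 libraries was most like that of the 8 genes were found by Pearson's r with their median profile among 4820 protein-coding genes. They were SPAC19G12.09 (r = 0.9998), annotated as an indole-3-acetaldehyde reductase, the cyclin gene pas1 (0.9993), yip3 (0.9988), pdx3 (0.9986) and isa1 (0.9985). Their log2 fold changes were -0.65, -0.91, -0.59, -0.41 and -0.50. With 3 libraries in each of 2 groups, such a profile mostly follows the group difference, and 845 genes had r above 0.9.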

How the data were processed

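The authors deposited raw gene counts. Build ASM294v2 and, without stated roles, DESeq, DESeq2, HTSeq 0.10.0, HISAT2 2.1.0 and SAMtools appear in the submitters' processing notes. Libraries came from a stranded polyA kit, per the labels' protocols. How strand and multiply mapped reads were counted is not given in the labels or files used here. Per the file headers, the authors' comparison table holds log2 fold changes with standard errors, a Wald score and p-values, beside the signal of each group as an average of normalized counts.

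The table has 6987 lines for 6986 genes (1 repeated identifier, summed). Names came from the authors' table; transcript lengths, exons and neighbours came from RefSeq ASM294v3 (97.8% of genes matched), and no coordinates are used. Name matches that were other genes, under current or older names (bsu1, rrs1, rar1 and mra1), were left out of the lists. Promoter motifs were not searched.

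Counts were fitted with edgeR 4.0.16 in R 4.3.3 (filterByExpr with a minimum count of 10, TMM, quasi-likelihood F test, group only), adjusted by Benjamini-Hochberg over all genes tested, with calls below 0.05. The approximate SE is the log2 fold change over the square root of F. On data simulated for this comparison (6019 genes) the test called 56% of genes changed 1.25-fold and 86% at 1.5-fold, with 10 false calls among 5821 unchanged genes. Few genes were changed in the simulation and no trend with abundance was simulated, unlike in the real data, so these rates may not hold there.

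Alternatives were DESeq2 1.42.0, other scalings and filters, cyclic loess with limma 3.58.1, protein-coding genes only, the replicate block and each library left out; GC-corrected offsets and a fit without mitochondrial and rRNA genes were added after the data were seen. The members and lists were chosen with earlier results of these data known. By rule, the named genes are the 8 members, duf89, called genes of the lists and antisense RNAs named after a member. The rule also took the nearest annotated gene on each side, read here as the nearest one that was counted. Last came the 5 genes of most similar pattern (mean of at least 50 counts). Chosen after their values were seen were arg41, aga1, the overlapping genes, the list genes named without a call and the limit to neighbours whose calls held under every alternative. The labels do not say whether WT replicates are separate cultures, so p-values may measure only technical spread.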

Additional observations from a re-analysis of the deposited data

How the results depend on the processing

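The number of arginine genes called lower was 7 under all 17 alternatives, which refit the counts used to choose the genes. With total counts 1 gene, arg7, was counted as called higher (0.20), and with cyclic loess it measured -0.13. The median over the 8 genes moved by more than the spread between libraries with total counts (-0.56), with cyclic loess (-0.49) and without duf89∆ replicate 3 (-0.57). It ran from -0.63 to -0.57 when a library was left out. Among the 8 genes 134 of 136 alternative values kept direction and call, and among 42 other named genes 626 of 709. Cyclic loess gave the opposite sign for mrs1 (0.023), gln1 (0.0074), car1 (-0.19), ura1 (0.060) and fil1 (0.0012). Arg4-antisense-1 measured -0.0061 with DESeq2, -0.00045 with its size factors, and -0.30 to 0.77 when a library was left out, and gln1 then measured -0.15 to 0.0017. The causes were not tested. Over all genes 3225 were called, 53.9% of them higher, and the alternatives gave 2401 to 3533 calls with 47.3% (GC-corrected offsets) to 66.4% (total counts) higher. Same-numbered libraries deviated with r of -0.13, -0.17 and 0.26, and not every library matched its own number best. The labels state no pairing by number, and so few libraries cannot decide whether same-numbered ones share a batch. The replicate block gave 3533 calls, 7 arginine genes lower and a median of -0.62. At this depth arg4-antisense-1, with 34 to 109 counts, limits what can be said of it.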
